A study of Homo sapiens with 2 samples.

Results

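The enzymes of serine synthesis and of the folate one-carbon cycle were examined in HCT116 cells, an established line from a human colorectal carcinoma, under glucose deprivation. The 9 enzymes are PHGDH, PSAT1 and PSPH of serine synthesis, SHMT2, MTHFD2, MTHFD1L and ALDH1L2 of the mitochondrial folate pathway, and SHMT1 and MTHFD1 of the cytosolic folate pathway. They were chosen by gene symbol, with earlier results of these data known. All 9 were found with a value among the 17054 genes that have one, out of 17987 genes listed. RNA-Seq was performed on 1 library of cells kept for 24 h in glucose-free medium (0 mM) and 1 library of cells kept in normal medium. Both libraries come from cells labelled as wild type, whereas the column names of the table call them NC, the study's name for control cells. The methods of the study name DMEM with fetal bovine serum for both conditions, and DMEM itself supplies serine and glycine. For each gene the authors computed a log2 fold change of glucose deprivation over normal medium, with a false discovery rate (FDR) from their Poisson test of both libraries. With 1 library per condition no difference has a replicate check, and that test compares 2 libraries, not the conditions.

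Serine is made from the glycolytic intermediate 3-phosphoglycerate in consecutive steps by PHGDH, PSAT1 and PSPH. Serine hydroxymethyltransferases then pass a carbon unit from serine to tetrahydrofolate and release glycine. The folate cycle runs in parallel in mitochondria and in the cytosol: mitochondrial enzymes oxidise the unit to formate, which leaves for the cytosol and is used there for purine, thymidylate and methionine synthesis. Tumour cells often express the mitochondrial branch strongly, and PHGDH, PSAT1, SHMT2 and MTHFD2 are known targets of the stress transcription factor ATF4.

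The serine synthesis and mitochondrial folate enzymes were mostly higher under glucose deprivation, and the cytosolic folate enzymes had negative values. Of the 9 enzymes, 5 were higher (log2 fold change above 0.75 and FDR of at most 0.001), 1 was lower (below -0.75 with the same FDR) and 3 were neither. Of all genes with a value, 6.85% were higher and 13.1% were lower by this rule. Because the enzymes were chosen with earlier results of these data known, this contrast is descriptive only. By size alone the members' counts were again 5 and 1, against 13.5% of all genes higher and 22.3% lower. The median of the 9 was 0.81, against -0.12 for all genes. All 9 had an FDR of at most 0.001, so the 3 that were neither failed on size. The plot of the 9 enzymes shows these values side by side.

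**Figure D1:**
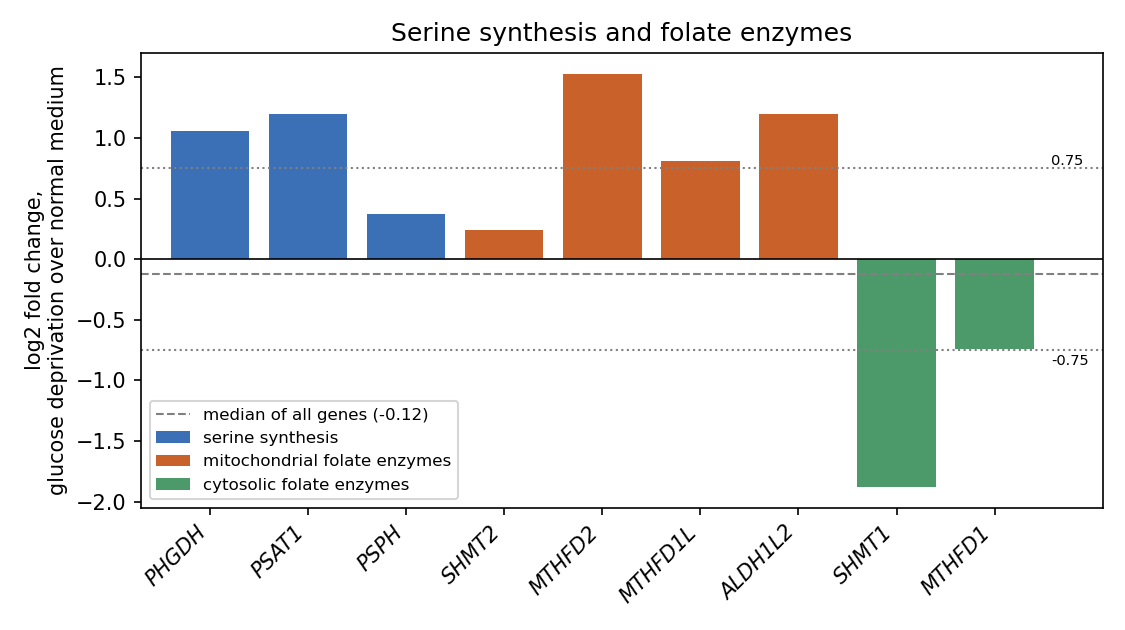
Log2 fold change, glucose deprivation over normal medium, of the 9 enzymes (bars), with dotted lines at 0.75 and -0.75 and a dashed line at the median of all genes. PHGDH, PSAT1, MTHFD2, MTHFD1L and ALDH1L2 lie above 0.75 and SHMT1 lies below -0.75, with 1 library per condition and thus no error bars.

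In serine synthesis, PHGDH and PSAT1 were higher by the rule above, and PSPH was higher only by the study's smaller size for increases, a fold of 1.2, as were 15.9% of all genes. PHGDH, the dehydrogenase that commits 3-phosphoglycerate to the pathway, had a log2 fold change of 1.06, or 2.08-fold, in the authors' deposited table. PSAT1, the aminotransferase that uses glutamate as the nitrogen donor, stood at 1.2 (2.3-fold). PSPH, the phosphatase that releases serine, was at 0.37 (1.29-fold, FDR 2.52e-09), which is below 0.75. PHGDH and PSAT1 thus lay close together, and PSPH had less than both of them. Of all genes with a value, 91.3% lay below PHGDH, 92.4% below PSAT1 and 75.6% below PSPH.

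Of the 4 mitochondrial folate enzymes, 3 were higher, against 6.85% of all genes with a value. MTHFD2, the mitochondrial methylene-tetrahydrofolate dehydrogenase and cyclohydrolase, had the largest value of the 9, a log2 fold change of 1.53 (2.90-fold) in the authors' deposited table. Only 946 of the 17054 genes had a larger one. ALDH1L2, which oxidises mitochondrial formyl-tetrahydrofolate to carbon dioxide with formation of NADPH, stood at 1.2 (2.3-fold). Its FDR of 5.65e-08 was the weakest of the 5 higher enzymes. MTHFD1L, the synthetase that releases formate from formyl-tetrahydrofolate, was at 0.81 (1.75-fold) and so just above 0.75. SHMT2, the mitochondrial serine hydroxymethyltransferase that feeds this branch, was at 0.24 (1.18-fold), short of the size asked for although its FDR was 6.98e-18. Among these 4, the first enzyme of the branch therefore had the smallest value. MTHFD2L, a mitochondrial relative of MTHFD2 outside the 9, had a smaller one still (-0.13).

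The cytosolic folate enzymes had the only negative values of the 9, and the serine synthesis enzymes, which are cytosolic too, were all above 0. SHMT1, the cytosolic serine hydroxymethyltransferase, was lower, with a log2 fold change of -1.88, a level 3.67-fold lower in glucose-deprived cells in the authors' deposited table. Only 985 genes had a smaller value. MTHFD1, the cytosolic enzyme that combines the dehydrogenase, cyclohydrolase and synthetase activities in a single protein, stood at -0.74 (FDR 1.2e-85). This is a 1.68-fold lower level and falls just short of -0.75. The plot of the 9 enzymes among all genes shows both cytosolic folate enzymes to the left of the median and the other 7 to the right of it.

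**Figure D2:**
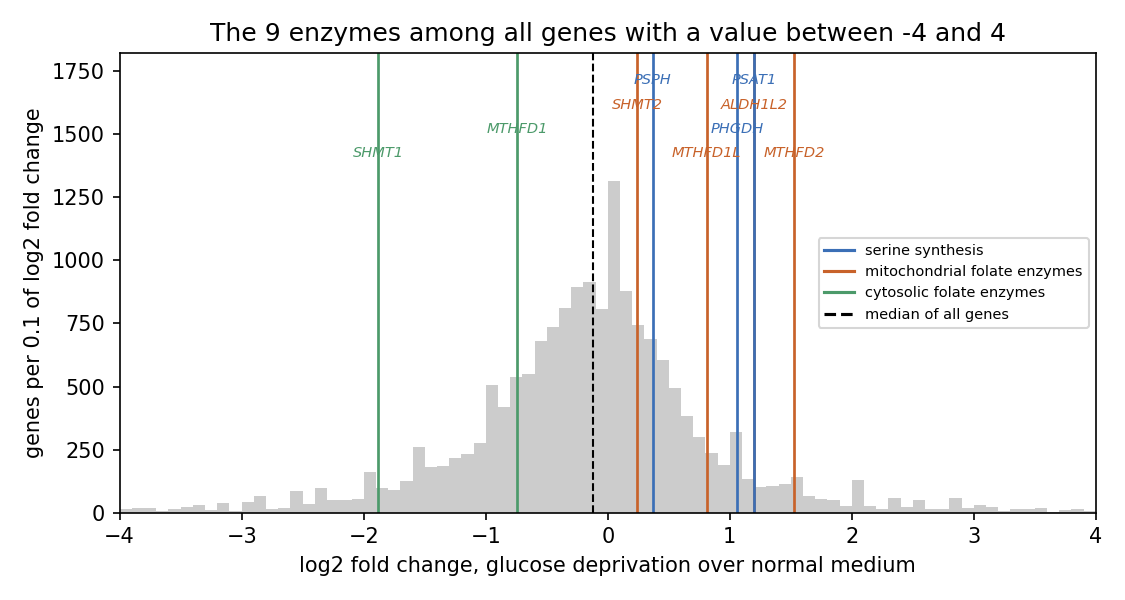
Number of genes per 0.1 of log2 fold change (grey, values between -4 and 4), with coloured lines at the 9 enzymes and a dashed line at the median of all genes (-0.12). SHMT1 (-1.88) and MTHFD1 (-0.74) lie left of the median, and the 7 serine synthesis and mitochondrial enzymes lie between 0.24 and 1.53.

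Promoter sequences were searched for the 9 enzymes, and those of the paralogs MTHFD1L and MTHFD1 are shown because one was higher and the other had a negative value. The sequences are from RefSeq (GRCh38.p14) and run from 250 bases before to 50 bases after a transcription start. Of the 9 enzymes 6 had an entry, and PSPH, SHMT2 and ALDH1L2 had none. The searched motifs were TGATGNAA, the core of the element bound by C/EBP and ATF heterodimers, and CACGTG, the E-box bound by MYC and related factors, on both strands. Capitals mark matches of either motif. The MTHFD1L promoter (chr6:150866236-150866535, plus strand, the first of its 4 entries) and the MTHFD1 promoter (chr14:64388103-64388402, plus strand) read as follows.
MTHFD1L: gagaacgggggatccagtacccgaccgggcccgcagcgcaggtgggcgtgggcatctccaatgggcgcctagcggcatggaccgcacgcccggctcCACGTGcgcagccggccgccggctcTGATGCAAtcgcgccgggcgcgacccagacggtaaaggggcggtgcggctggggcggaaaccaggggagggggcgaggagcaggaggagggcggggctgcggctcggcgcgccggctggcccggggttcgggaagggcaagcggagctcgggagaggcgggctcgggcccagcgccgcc
MTHFD1: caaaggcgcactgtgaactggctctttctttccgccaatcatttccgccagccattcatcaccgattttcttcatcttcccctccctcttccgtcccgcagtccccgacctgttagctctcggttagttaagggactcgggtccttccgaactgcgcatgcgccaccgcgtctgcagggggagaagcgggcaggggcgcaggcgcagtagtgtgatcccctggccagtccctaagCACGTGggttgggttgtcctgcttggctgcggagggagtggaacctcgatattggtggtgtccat

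Both promoters held CACGTG, 154 bases before the start in MTHFD1L and 15 bases before it in MTHFD1. TGATGNAA was found in MTHFD1L alone among the 6 enzymes with an entry, 129 bases before the same MTHFD1L start. These MTHFD1L distances depend on the entry used. TGATGNAA lay 90 bases before the start of its entry 3 and 24 bases after the start of its entry 2. Of 35116 promoters in the table, 3.62% held TGATGNAA and 7.26% held CACGTG, and the motifs share no bases with each other in these promoters. Of the 55 genes in the lists, 44 had an entry, and 4 of these held TGATGNAA in at least 1 entry and 7 held CACGTG. By gene, the shares of all 27305 genes were 4.46% and 8.77%. A match describes letters only, and the promoters of PHGDH, PSAT1, MTHFD2 and SHMT1 held neither motif in this window.

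Enzymes that carry out the same reaction in both compartments were then compared, because a factor common to a library cancels in such a difference. For the hydroxymethyltransferases the difference SHMT2 minus SHMT1 was 2.12 on the log2 scale, so that the ratio of mitochondrial to cytosolic transcript was 4.35 times as high under glucose deprivation as in normal medium. For the dehydrogenase step MTHFD2 minus MTHFD1 was 2.28 (4.85 times), and for the formate step MTHFD1L minus MTHFD1 was 1.56 (2.94 times). Both of these differences share MTHFD1. The 4 mitochondrial folate enzymes had a median of 1.01 and the 2 cytosolic folate enzymes a median of -1.31, a difference of 2.32. These 4 and 2 values did not overlap: the lowest mitochondrial value (SHMT2) lay 0.99 above the higher value of the cytosolic folate enzymes (MTHFD1). Over the wider lists of folate genes given below the ranges did overlap. They were -1.41 to 1.53 for mitochondrial and -1.88 to 2.58 for cytosolic genes. These are differences between genes of 1 pair of libraries, and no test of them was possible.

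**Figure D3:**
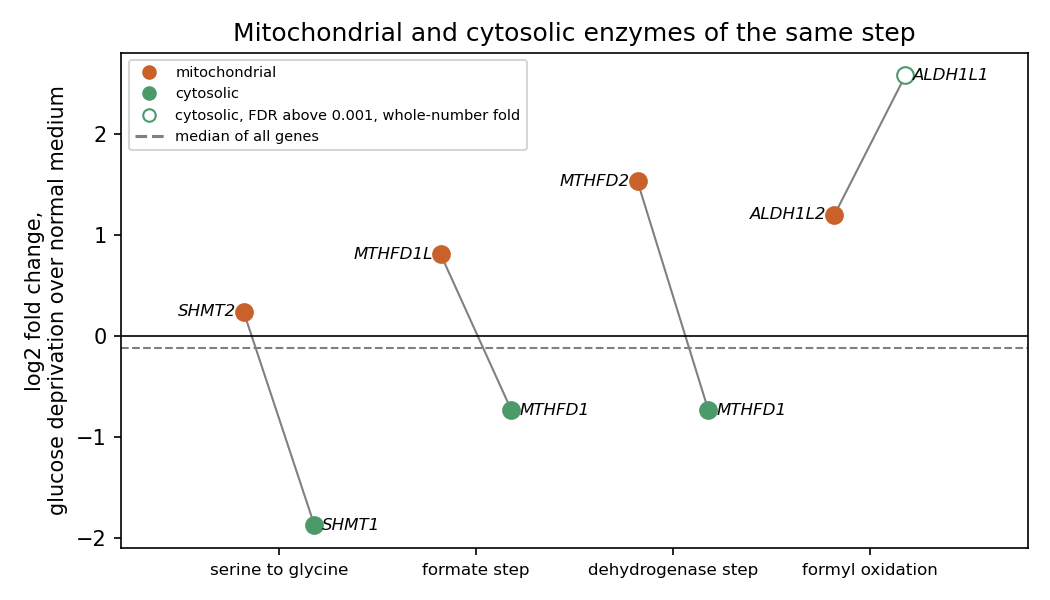
Log2 fold change, glucose deprivation over normal medium, of the mitochondrial (left point) and cytosolic (right point) enzyme of each step, with the median of all genes as a dashed line. In the first 3 pairs the mitochondrial enzyme lies higher, by 1.56 to 2.28; in the last, ALDH1L1 (open point) has a whole-number fold and an FDR of 0.112.

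The pair ALDH1L2 and ALDH1L1 went the other way. ALDH1L1, the cytosolic formyl-tetrahydrofolate dehydrogenase, is listed at 2.58, and the difference ALDH1L2 minus ALDH1L1 was -1.38. The FDR of ALDH1L1 was 0.112, and its fold is the whole number 6.0, so the size of this value is coarse. The paralogs within mitochondria also differed. MTHFD2L, the close relative of MTHFD2, stood at -0.13 (FDR 0.0373) in the authors' deposited table, 1.66 below MTHFD2.

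The compartment difference was not seen over wider lists of folate genes. Over 12 mitochondrial folate genes the median was 0.06 and over 10 cytosolic ones it was -0.01, a difference of 0.07. TYMS, FPGS and DLD were counted with both compartments and left out of these lists, and the sign of this difference depended on them. Of the 12, 4 were higher and 2 were lower, and of the 10, none was higher and 1 (SHMT1) was lower. The shares of all genes were 6.85% higher and 13.1% lower. By size alone 2 of the 10 were higher, ALDH1L1 and FTCD (0.85, FDR 0.125), an enzyme of histidine breakdown, against 13.5% of all genes. When genes with an FDR above 0.001 were left out, the medians were 0.81 over 7 mitochondrial and -0.39 over 5 cytosolic genes. This filter selects on the FDR of the same fold changes and keeps all the folate enzymes compared above. These medians are therefore no separate check of the compartment difference. The mitochondrial median is the value of MTHFD1L itself. The mitochondrial genes that remained beside SHMT2, MTHFD2, MTHFD1L and ALDH1L2 were GLDC (-1.41), GCSH (-0.83) and AMT (1.53). The 3 cytosolic genes that then remained beside SHMT1 and MTHFD1 were the purine synthesis enzymes GART (0.15) and ATIC (-0.39) and methionine synthase MTR (-0.28), none of them beyond 0.75.

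The glycine cleavage system, which breaks down glycine in mitochondria and also charges folate, holds both lower genes and 1 of the higher genes of the mitochondrial list. GLDC, its decarboxylase, had a log2 fold change of -1.41 and GCSH, its lipoyl carrier protein, one of -0.83 in the authors' deposited table. AMT, its aminomethyltransferase, was higher at 1.53. Its shared dehydrogenase subunit DLD was at -0.18. The subunits of this system therefore differed in direction. The mitochondrial folate carrier SLC25A32 stood at -0.14 and the formyltransferase MTFMT, which acts on the initiator tRNA, at -0.16, and neither passed the FDR. DMGDH (0.30) and SARDH (-0.12), which oxidise dimethylglycine and sarcosine, did not pass it either.

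The listed genes of thymidylate synthesis, folate uptake and folate turnover were lower or had negative values, apart from FOLR2. TYMS, thymidylate synthase, was lower, with a value of -1.29 in the authors' deposited table. The other 2 genes counted with both compartments, DLD and the polyglutamylating FPGS (-0.17), were neither. DLD was counted there although the glycine cleavage system that it belongs to is mitochondrial. Of 5 genes of folate uptake and turnover, 3 were lower, against 13.1% of all genes, with a median of -1.07. The lower ones were the folate receptor FOLR1 (-1.37), the reduced folate carrier SLC19A1 (-1.35) and the hydrolase GGH (-1.07). The proton-coupled transporter SLC46A1 was at -0.47. FOLR2 is listed at 2.58 with an FDR of 0.598 and a whole-number fold.

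Among 11 genes of serine and glycine transport and breakdown, 4 were higher and 2 were lower, with a median of 0.40. Of all genes, 6.85% were higher and 13.1% were lower. SLC1A4, a neutral amino acid transporter that carries serine, was higher (1.86), as was SLC6A9, a glycine transporter (1.59), in the authors' deposited table. SDSL, a serine dehydratase-like enzyme, stood at 0.96 and SLC25A38, the mitochondrial glycine carrier, at 0.84. Lower were SRR, the serine racemase (-0.91), and SFXN1, the mitochondrial serine transporter (-0.78). SDSL, SLC25A38, SRR and SFXN1 did not pass a size of 1 on the log2 scale, and SFXN1 did not pass after centring on the median of all genes (-0.67). SFXN3, a relative of SFXN1, was at -0.37, SLC1A5 at 0.49 and GCAT, of threonine breakdown, at 0.40. SDS (-2.81, FDR 0.342) and SLC7A10 (-2.00, FDR 0.61) have folds that are ratios of small whole numbers.

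The 4 promoters with TGATGNAA are shown as windows of 30 bases, with the motif in capitals (read on the other strand in SLC1A4 and AHCYL2), since they belong to genes with values of both signs. They lie at chr6:150866346-150866375 (MTHFD1L, plus strand), chr2:64989381-64989410 (SLC1A4, plus strand), chr19:46784893-46784922 (SLC1A5, minus strand) and chr7:129368232-129368261 (AHCYL2, plus strand).
MTHFD1L: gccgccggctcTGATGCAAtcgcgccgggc
SLC1A4: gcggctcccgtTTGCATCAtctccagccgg
SLC1A5: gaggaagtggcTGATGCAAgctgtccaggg
AHCYL2: ggtgcagcactTTGCATCAgctctgatttt
The 4 matches have the same 8 letters, with C at the open place. MTHFD1L (0.81) and the serine transporter SLC1A4 (1.86) were higher in the authors' deposited table. SLC1A5, a glutamine and neutral amino acid transporter (0.49), and AHCYL2, a relative of adenosylhomocysteinase (-0.31), were neither.

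In the methionine cycle and transsulfuration, 1 of 11 genes was higher and 2 were lower, with a median of 0.01. The higher one in the authors' deposited table was CTH, which forms cysteine from cystathionine (0.90). The S-adenosylmethionine synthetases MAT1A (-1.68) and MAT2A (-1.43) were lower, whereas the regulatory subunit MAT2B was at -0.21. CBS, the enzyme before CTH, is listed at 3.17 with an FDR of 0.00688 and a whole-number fold of 9.0. GNMT (-2.22, FDR 0.0397) and BHMT (2.81, FDR 0.187) did not pass either. Over all 46 pathway genes outside the 9 enzymes, 6 were higher, 10 were lower and 30 were neither, with a median of -0.15, against 6.85% of all genes higher and 13.1% lower.

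**Figure D4:**
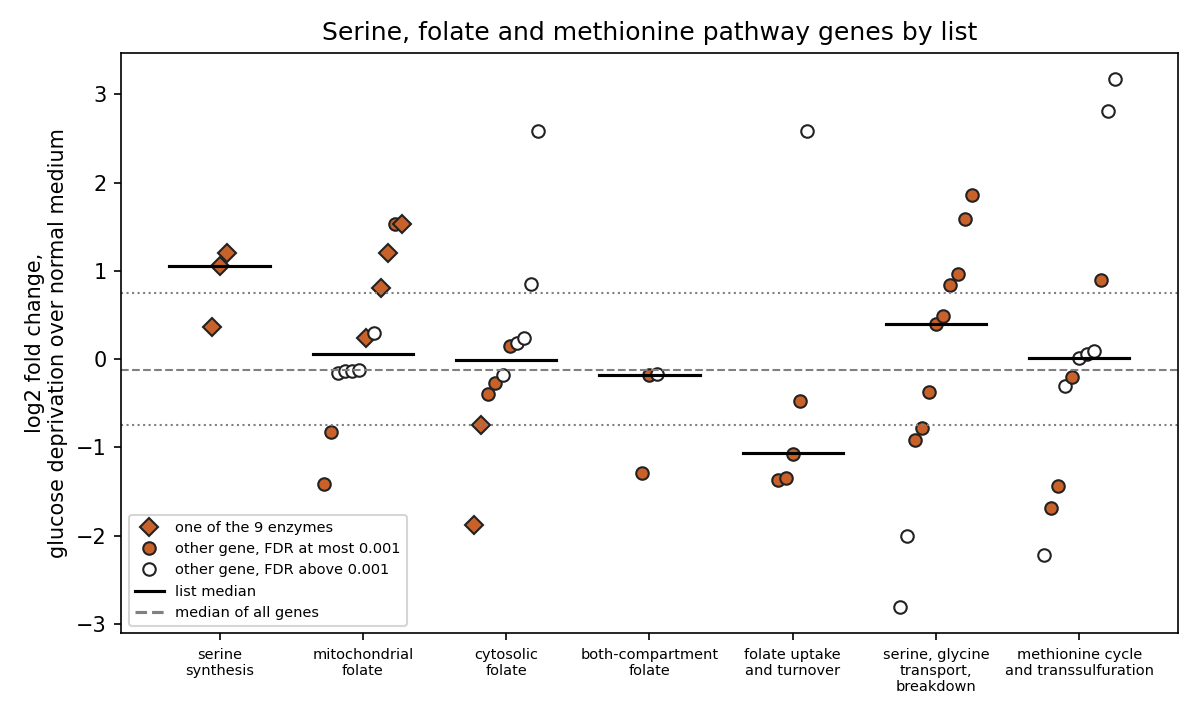
Log2 fold change, glucose deprivation over normal medium, of 55 genes in 7 lists (diamonds for the 9 enzymes, circles for other genes, open where the FDR is above 0.001), with the list medians as bars, dotted lines at 0.75 and -0.75 and a dashed line at the median of all genes. The list median is 1.06 for serine synthesis and -1.07 for folate uptake and turnover, and the extreme values above 2 are all open.

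Some values may hold reads of other genes. RefSeq lists 14 pseudogenes of 5 of the 9 enzymes, 7 of them of MTHFD2 and 4 of PSAT1, and none is listed in the table. Exons of 5 enzymes overlap genes on the opposite strand in GENCODE 29, and whether strand was used in counting is not given in the sources used here. The overlapping gene NDUFA4L2 stood at 2.32 beside SHMT2 (0.24), SLC4A5 at 0.74 beside MTHFD2, C12orf45 at 0.28 beside ALDH1L2, SMCR8 at -0.32 beside SHMT1 (-1.88) and ZBTB25 at -0.01 beside MTHFD1. Their part in the members' values was not tested. Levels and depth are unknown from fold changes, so the cell type could not be checked by marker levels: of 7 epithelial markers 6 have a value, and VIL1 is listed without one. Of these 6, CDH1 was higher (1.45), CDX2 was lower (-1.15) and the other 4 were neither. Of 5 markers of other cell types, 4 have a value, and COL1A2 was searched for but is not listed. CD68, a lysosomal glycoprotein used as a macrophage marker, was higher at 3.21, while the other 3 were neither higher nor lower. Both libraries were of the HCT116 line, so these marker values are not read as other cells in the samples. What lies behind the CD68 value was not tested.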

How the data were processed

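RNA-Seq of 1 glucose-deprived and 1 normal-medium library of HCT116 was analysed from the authors' table. The methods of the study name MGI2000 sequencing, Bowtie with the mouse build mm10, and RSEM, while Bowtie2, BWA and hg19 stand in the notes of the submitters. No version is given in the sources used here. The deposited log2 fold change and the deposited p-value and FDR of the authors' Poisson test were used as listed. They are the authors' own comparison, used because the table has no other values. The deposited FDR was treated as a score, since 501 of its values exceed 1. No value is listed for 933 genes. Positive values were read as higher under glucose deprivation, from the column name and because all 41 genes that the study lists as downregulated are negative.

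Genes beyond 0.75 in either direction with an FDR of at most 0.001 were called. The size below -0.75 and the FDR are those of the study's methods, which ask for a fold of 1.2 for increases. A fold was called coarse where it was a ratio of whole numbers up to 20 (relative tolerance 1e-07). The genes named are the 9 enzymes, their paralogs, and from each list the called genes (at most 4 in each direction) and the largest change not called; other list genes were named after their values were seen. The enzymes and lists were chosen with earlier results of these data known. Some pathway genes are not reported here. No test was run. The calling rule was tested on simulated data. Python 3.11.15, numpy 2.4.6, pandas 2.3.3 and matplotlib 3.10.9 were used.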

Additional observations from a re-analysis of the deposited data

How the results depend on the processing

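With 1 library per condition and no levels or depth, no error, interval or detection limit can be given. No paired analysis was possible because each condition has a single library, and the planned pseudocounts and level filters were not run because the table holds no levels. Centring on the median of all genes raised every value by 0.12, kept the sign and the call of all 9 enzymes and left the compartment difference of the enzymes at 2.32. It also left 1 mitochondrial folate gene lower in place of 2 (GCSH at -0.71 was lost), as did a size of 1 on the log2 scale, and 8 pathway genes outside the enzymes lower in place of 10 (SFXN1 at -0.67 was lost too). The enzymes called higher numbered 4 at that size (without MTHFD1L) and 6 with the study's fold of 1.2 (with PSPH), by which 15.9% of all genes were higher, and SHMT1 was the only lower one in every setting. Pathway genes outside the 9 enzymes called higher numbered 3 at a size of 1 and 11 by size alone, against 6, and cytosolic folate genes called higher numbered 2 by size alone, against 0. By size alone 13.5% of all genes were higher. The shares of all genes at a size of 1 and after centring were not computed. The counts in those settings therefore have no background beside them. The difference of 2.32 became 0.07 over the wider lists. That value turned to -0.12 with the genes of both compartments counted as mitochondrial, and was 0.24 with them counted as cytosolic. It was 1.21 without the genes whose FDR exceeds 0.001. That filter selects on the FDR of the same fold changes and keeps all the folate enzymes behind the 2.32. The 1.21 is therefore no separate check of the compartment difference. DLD, a subunit of a mitochondrial system, was among the genes of both compartments. The difference with DLD alone counted as mitochondrial was not computed. Exact symbols matched the same 55 genes.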
